A study of Caenorhabditis elegans with 2 samples.

Results

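The mitochondrial genome of the nematode Caenorhabditis elegans holds 36 genes, and the peaks of CEH-32 chromatin immunoprecipitation over these genes are described here. The members are all genes that the annotation of build WBcel235, which equals ce11, places on the mitochondrial chromosome, 36 of 46926 annotated genes. They comprise 12 protein-coding genes, 2 ribosomal RNA genes and 22 tRNA genes, all on the plus strand and each a single exon. All 36 were matched to RefSeq, which supplied the names, since Ensembl named 3 of them.

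CEH-32 is a worm homeodomain protein related to the fly protein sine oculis and is required for development of the head. The material was whole hermaphrodites of strain OP516, genotype unc-119(tm4063) III with the transgene wgIs516, which expresses CEH-32 with a C-terminal GFP-FLAG tag. The worms were at the fourth larval stage, 52 hours after synchronisation by starvation at the first larval stage, and tagged protein was precipitated with an antibody against GFP after sonication. There was 1 group of 2 biological replicates from separate biosamples of 1 transgenic line, so no conditions could be compared. The deposited lists give a signal for each peak, a value from the authors' own peak caller. Its scale is not stated and may differ between lists. The optimal list holds the peaks that passed the authors' reproducibility threshold (irreproducible discovery rate). The pooled list is a relaxed list from both replicates together. Its name calls it peaks and background as input for that threshold, so its entries can include background. Each replicate also has a relaxed list. Read counts were not used here, so depth is unknown, and a signal could not be set against the number of copies of mitochondrial DNA. No control or input library was analysed here.

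The mitochondrial genome is a small circle present in many copies per cell and packaged without histones. Its protein-coding genes encode membrane subunits of the respiratory chain. These are subunits of complex I (ND genes), which takes electrons from NADH, cytochrome b of complex III (CYTB), the catalytic core of cytochrome c oxidase, complex IV (COX genes), and the proton channel of ATP synthase, complex V (ATP6). The rRNA and tRNA genes serve translation inside the organelle, and the largest noncoding stretch is called the AT-region.

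The sequences below are read on the plus strand of the mitochondrial chromosome from the RefSeq genome of build WBcel235. CYTB and ND5 are the windows of 50 bp on each side of the strongest summits, COX2 and s-rRNA are windows at which the summits of all lists nearly coincide, and COX1 is that of the weakest peak, with the summit base in capitals. The s-rRNA window runs past the end of that gene at 1593 into tRNA-Ser(UCN), which starts at 1595. The AT-region is shown by its start, since no peak region touched it. The last 2 are 30-base segments with a match to a searched hexamer in capitals.
CYTB, chrM:4651-4751: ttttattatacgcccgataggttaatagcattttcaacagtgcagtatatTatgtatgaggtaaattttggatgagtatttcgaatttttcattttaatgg
ND5, chrM:12403-12503: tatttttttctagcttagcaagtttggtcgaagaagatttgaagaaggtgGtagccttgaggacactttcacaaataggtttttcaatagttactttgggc
COX2, chrM:10145-10245: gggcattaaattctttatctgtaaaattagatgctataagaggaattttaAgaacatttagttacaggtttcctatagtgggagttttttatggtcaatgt
s-rRNA, chrM:1540-1640: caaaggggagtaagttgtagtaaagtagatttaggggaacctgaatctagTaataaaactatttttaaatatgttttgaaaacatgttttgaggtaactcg
COX1, chrM:9276-9376: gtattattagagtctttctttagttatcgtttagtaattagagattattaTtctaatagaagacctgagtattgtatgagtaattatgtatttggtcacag
AT-region, chrM:13329-13429: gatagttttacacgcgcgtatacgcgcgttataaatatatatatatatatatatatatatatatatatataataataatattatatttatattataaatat
ND1 with TAATTA, chrM:2106-2135: tttatacaacttTAATTAgcggtatcgtaa
ATP6 with TGATAA on the minus strand, chrM:3086-3115: tagaataatgctTTATCAaggattagaatt

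Peak summits fell in nearly every protein-coding gene and in both rRNA genes, and in no tRNA gene of the optimal list. A summit of the optimal list lay inside 13 of the 36 mitochondrial genes (36.1%), against 0.452% of all annotated genes. Genes make up 96.2% of the mitochondrial genome, so nearly any summit there falls in a gene. In the relaxed list of replicate 1 the count was 14 of 36, against 13.8% of all genes, and in that of replicate 2 it was 13 of 36, against 13.6%. The pooled list held the same 24 mitochondrial peaks as the optimal list, with the same regions, summits and signals, so its values are not repeated. Replicate 1 had 24 mitochondrial summits and replicate 2 had 23.

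In the optimal list 11 of the 12 protein-coding genes held a summit (91.7%), and so did both rRNA genes, whereas 0 of the 22 tRNA genes did. Among nuclear protein-coding genes 101 of 19973 held one (0.506%), and gene length differed, with a median of 822.5 bp in the mitochondrial genome, against 2027 bp for the nuclear genes. Among nuclear tRNA genes 18 of 612 held one (2.94%). Among nuclear rRNA genes 0 of 20 did. In the replicate lists the mitochondrial protein-coding count was again 11 of 12, against 27.8% of nuclear protein-coding genes in each replicate. Of the 22 mitochondrial tRNA genes, 1 held a summit in replicate 1 and 0 in replicate 2, against 15.7% and 14.7% of nuclear tRNA genes. The mitochondrial tRNA genes are short and make up 8.83% of their genome, and the part of gene length in the difference between classes was not tested. The protein-coding genes, 75.7% of the mitochondrial genome, held 19 of the 24 optimal summits and 84.8% of the mitochondrial signal. The rRNA genes, 11.9% of the genome, held the other 5 summits and 15.2% of the signal, which is 3.03 summits per kb against 1.82 per kb in the protein-coding genes.

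**Figure D1:**
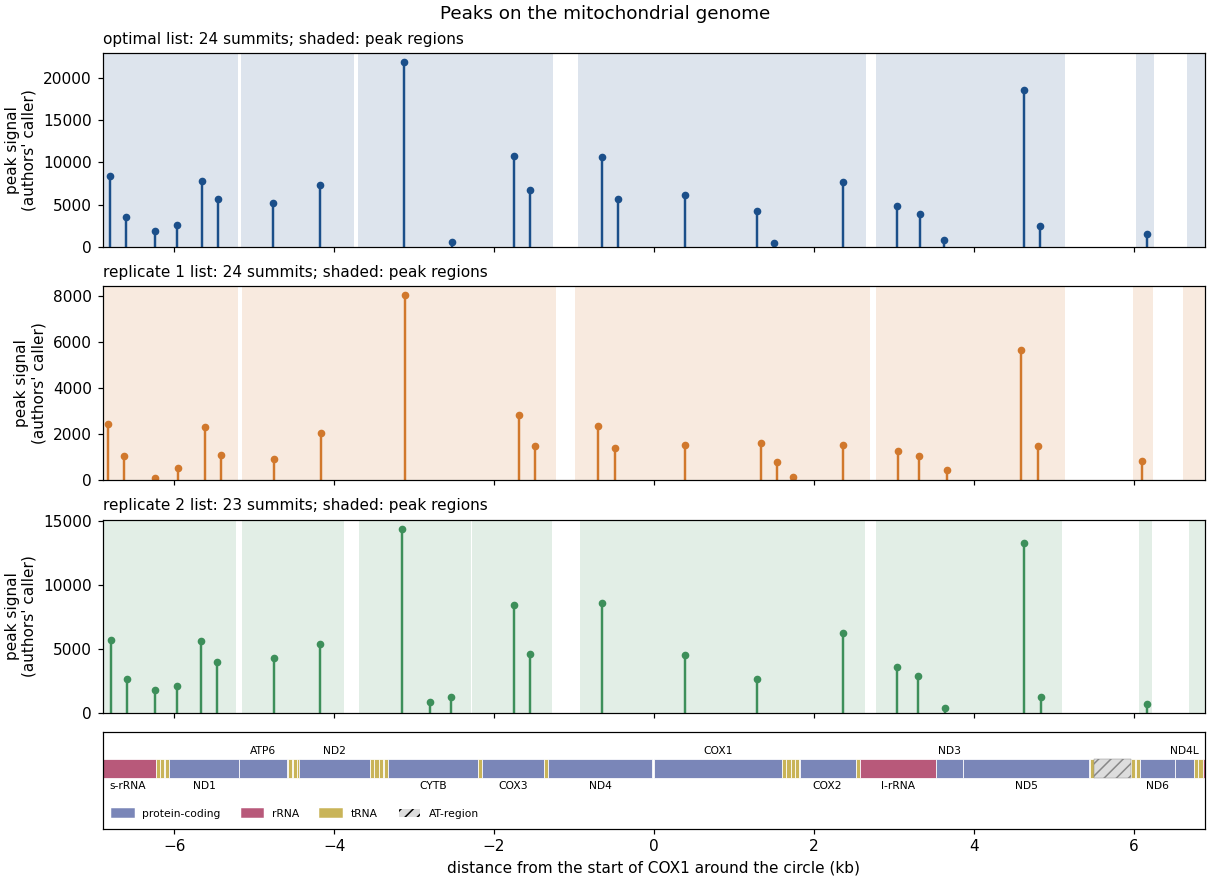
Peak signal (vertical axis, linear and differently scaled in each panel) of every mitochondrial summit in the optimal list and the relaxed lists of replicate 1 and replicate 2, against distance in kb from the start of COX1 around the circle, with peak regions shaded and the genes below. The strongest summits lie in CYTB and ND5 in all 3 panels, and the hatched AT-region has no shading in any of them.

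Cytochrome b, CYTB (WBGene00000829, positions 4504 to 5621), the core subunit of complex III, held the strongest peak of every list. Its summit at position 4701 had a signal of 21821 in the optimal list. The matching summits were at 4710 with 8012 in replicate 1 and at 4672 with 14383 in replicate 2. The gene therefore led in both replicates, although its summits there lay on opposite sides of the optimal one. The second optimal summit in CYTB, at 5299, had a signal of 617.6. Replicate 2 had a summit at 5289 with 1304, and replicate 1 had none within 100 bp, its nearest summit being 589 bp away. Replicate 2 also had a summit at 5021 with 854 that had no optimal counterpart. Only replicate 2 thus had weaker CYTB summits, while both replicates had the strong one.

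Among the complex I genes, ND5 (WBGene00010967, 11691 to 13272), a membrane subunit of the proton-pumping arm, was highest. Its summit at 12453 had 18555 in the optimal list, 5666 at 12422 in replicate 1 and 13252 at 12453 in replicate 2. A second summit at 12661 had 2513 in the optimal list, 1470 at 12627 in replicate 1 and 1285 at 12670 in replicate 2. The order of these 2 summits was the same in each list, but the second was higher in replicate 1 than in replicate 2. CYTB and ND5 together held 29.2% of the mitochondrial signal of the optimal list, 35.3% of that of replicate 1 and 29.4% of that of replicate 2.

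ND4 (WBGene00010963, 6506 to 7808), another membrane subunit of complex I, had an optimal summit at 7171 with 10600. The replicates had 2359 at 7132 in replicate 1 and 8596 at 7175 in replicate 2. A second summit at 7373 with 5618 was found in replicate 1 alone, at 7334 with 1413, and the nearest summit of replicate 2 was 198 bp away. The lists differ here in the number of summits and not in whether ND4 held one.

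ND1 (WBGene00010959, 1763 to 2635), the subunit that forms part of the quinone-binding site, held 3 summits in each list. The strongest, at 2168, had 7776 in the optimal list, 2312 at 2207 in replicate 1 and 5648 at 2166 in replicate 2. The next, at 2371, had 5709 in the optimal list, 1099 at 2414 in replicate 1 and 4031 at 2366 in replicate 2. The third, at 1862, was the weakest of the ND1 summits in every list, with 2529 in the optimal list, 506 in replicate 1 and 2168 in replicate 2. ND2 (WBGene00010961, 3389 to 4269), also a membrane subunit, held 1 summit at 3649 with 7356 in the optimal list, 2053 at 3657 in replicate 1 and 5418 at 3649 in replicate 2.

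The smaller complex I genes carried the least signal. ND6 (WBGene00010957, 113 to 549) had a summit at 196 with 1543 in the optimal list, 810 at 139 in replicate 1 and 736 at 196 in replicate 2. ND3 (WBGene00010966, 11356 to 11691) had one at 11454 with 819 in the optimal list, 444 at 11495 in replicate 1 and 414 at 11462 in replicate 2. In both genes replicate 1 was slightly the higher one. ND4L (WBGene00010958, 549 to 783) was the protein-coding gene without a summit in any list. Its nearest summits lay in the neighbouring s-rRNA gene at 237 bp in the optimal list, 215 bp in replicate 1 and 247 bp in replicate 2. In the optimal list peak regions covered 34.0% of ND4L and 38.9% of ND6. Complex I genes as a group held 10 optimal summits and 42.3% of the mitochondrial signal on 40.9% of the genome.

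The complex IV genes all held summits. COX3 (WBGene00010962, 5678 to 6449) had a summit at 6078 with 10678 in the optimal list, 2835 at 6140 in replicate 1 and 8448 at 6073 in replicate 2. Its second, at 6278, had 6677 in the optimal list, 1480 at 6343 in replicate 1 and 4621 at 6278 in replicate 2. Both COX3 summits of replicate 1 lay downstream of the optimal ones, by 62 and 65 bp, the farthest matched offsets in either replicate. COX2 (WBGene00010965, 9649 to 10348), which carries the copper centre that receives electrons from cytochrome c, had 1 summit at 10195 with 7684 in the optimal list. It was at 10195 with 1520 in replicate 1 and at 10196 with 6269 in replicate 2. The position was thus shared to within 1 bp. The signal in replicate 2 was 4.12 times that in replicate 1, beside a median of 2.78 times over matched mitochondrial summits. The scale of the signal is not stated and may differ between the replicate lists.

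COX1 (WBGene00010964, 7827 to 9428), the catalytic subunit, had its strongest optimal summit at 8214 with 6083. The same site had 1545 at 8215 in replicate 1 and 4549 at 8214 in replicate 2. The summit at 9119 had 4204 in the optimal list, 1597 at 9160 in replicate 1 and 2655 at 9119 in replicate 2. In replicate 1 the 2 summits were nearly equal, and the order was reversed relative to replicate 2. The third optimal summit, at 9326, was the weakest mitochondrial peak, with 407. Replicate 1 had 788 at 9362, and replicate 2 had no summit within 100 bp. ATP6 (WBGene00010960, 2634 to 3235) of complex V had 1 summit at 3068 with 5139 in the optimal list, 921 at 3072 in replicate 1 and 4301 at 3069 in replicate 2. The complex IV genes held 24.0% of the mitochondrial signal of the optimal list on 22.3% of the genome, and ATP6 held 3.45% on 4.36%.

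The small-subunit rRNA gene, s-rRNA (WBGene00014454, 898 to 1593), held 3 summits in each list. The first, at 1020, had 8398 in the optimal list, 2455 at 998 in replicate 1 and 5747 at 1030 in replicate 2. The second, at 1227, had 3558 in the optimal list, 1032 at 1197 in replicate 1 and 2673 at 1241 in replicate 2. The third, at 1590, had 1913 in the optimal list, 97.5 at 1592 in replicate 1 and 1793 at 1591 in replicate 2. The site at 1590, whose window is printed above, had the widest gap between the replicates, an 18.4-fold ratio at summits 1 bp apart.

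The large-subunit gene, l-rRNA (WBGene00014472, 10403 to 11354), held 2 summits in each list. At 10866 the optimal signal was 4876, with 1266 at 10877 in replicate 1 and 3651 at 10866 in replicate 2. At 11148 it was 3826, with 1054 at 11138 in replicate 1 and 2927 at 11133 in replicate 2. The upstream summit of l-rRNA was the higher one in every list. The optimal peak regions covered 100% of s-rRNA and 87.8% of l-rRNA.

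**Figure D2:**
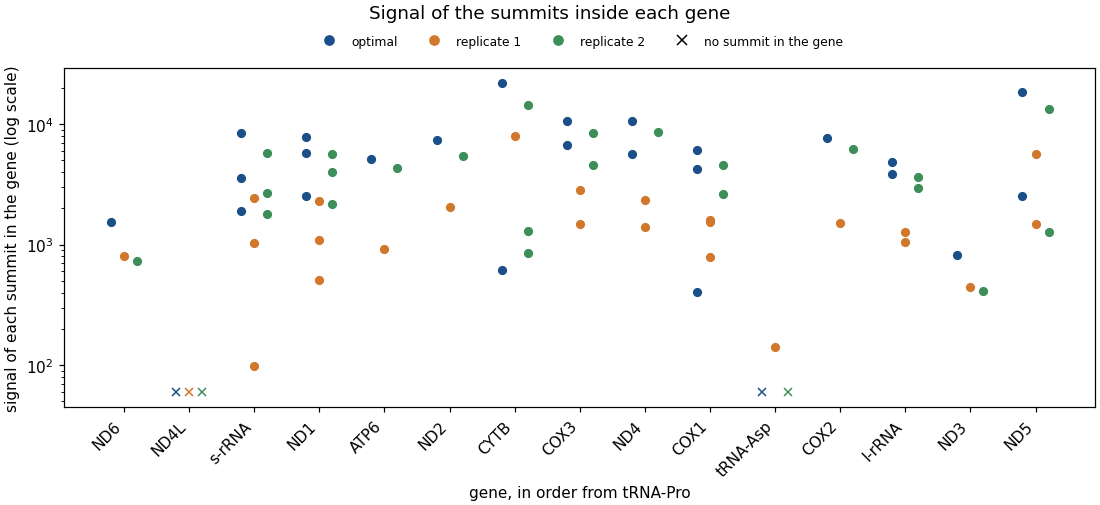
Signal (vertical axis, log scale) of each summit inside the 12 protein-coding genes, the 2 rRNA genes and tRNA-Asp, in map order, for the optimal list and both replicates. Crosses mark a list with no summit in that gene, which is every list for ND4L, and CYTB and ND5 hold the highest points.

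No tRNA gene, the adaptors of mitochondrial translation, held an optimal summit, although optimal peak regions covered 20 of the 22 completely. Their distance to the nearest optimal summit ranged from 5 to 614 bp, with a median of 178 bp. The closest was tRNA-Ser(UCN), 5 bp from the third s-rRNA summit, and tRNA-Asn followed at 58 bp from the same summit. tRNA-Val, 85 bp from the ND6 summit, and tRNA-Cys, 96 bp from the weakest COX1 summit, were the other members within 100 bp. Between 101 and 199 bp away lay tRNA-Tyr (101 bp), tRNA-Glu (124), tRNA-Pro (141), tRNA-Met (152), tRNA-His (153), tRNA-Thr (172), tRNA-Lys (176), tRNA-Trp (180) and tRNA-Phe (199). Farther off were tRNA-Asp (212 bp), tRNA-Ser(AGN) (233), tRNA-Leu(UUR) (239), tRNA-Gln (263), tRNA-Gly (267), tRNA-Arg (318), tRNA-Leu(CUN) (322), tRNA-Ile (373) and tRNA-Ala (614). The tRNA genes nearest the strongest peak, the cluster upstream of CYTB, were therefore not the closest to a summit. In replicate 1 tRNA-Asp (WBGene00014469) held a summit at 9565 with a signal of 143, and replicate 2 had no tRNA summit. tRNA-Pro and tRNA-Ala were outside all optimal peak regions.

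The optimal summits stood closer to those of replicate 2 than to those of replicate 1. Of the 24 optimal summits, 23 had a summit of replicate 1 within 100 bp, at a median distance of 31 bp, and 13 of these lay more than 25 bp away. For replicate 2 the count was 22 of 24, the median 1.5 bp, and 1 lay more than 25 bp away. Exact positions were shared at 1 summit with replicate 1 and at 7 with replicate 2. Because the authors chose optimal peaks for their recurrence, a counterpart in each replicate follows in part from that choice.

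The replicates ordered the mitochondrial summits similarly by signal, and the values were mostly higher in replicate 2. Over the 21 mutually nearest summits within 100 bp, Spearman's rho was 0.861 as a description, since sites on 1 molecule and in the same libraries are not independent. The signal of replicate 2 was a median of 2.78 times that of replicate 1, from 0.874 to 18.4 times, and was higher at 18 of 21 summits. The exceptions were the summits in ND6 and ND3 and the second one in ND5. At nuclear optimal peaks found in both replicates (n = 346) the median ratio between the same 2 lists was 1.02, from 0.347 to 3.22, with 53.8% above 1. Over all nuclear matched summits (n = 2491) it was 1.22, at most 4.19, with 70.5% above 1, beside 85.7% of the mitochondrial summits. The scale of the signal in each list is not stated, and its part in these ratios was not tested. With 1 library on each side the difference between the sets has no replicate check.

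**Figure D3:**
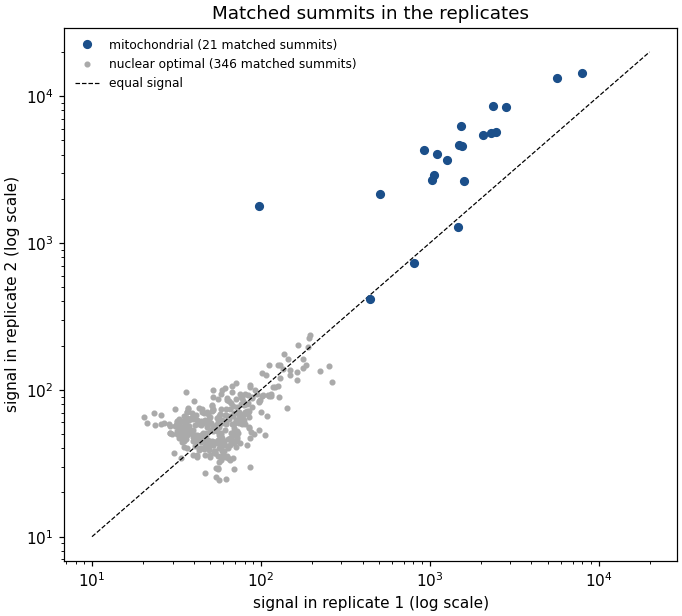
Signal in replicate 2 against signal in replicate 1 on log axes, for 21 matched mitochondrial summits and 346 matched summits at nuclear optimal peaks, with the line of equal signal. Of the mitochondrial points 18 lie above the line, while the nuclear points straddle it.

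Most mitochondrial peaks stood at the top of their list. Their median signal was 5378 against 106 at nuclear peaks of the optimal list, 1441 against 16.2 in replicate 1 and 4031 against 20.7 in replicate 2. In the optimal list 23 of the 24 mitochondrial peaks exceeded the strongest nuclear one, the COX1 summit at 9326 ranking 26 in the list. In replicate 2 all 23 mitochondrial peaks exceeded the strongest nuclear one, and in replicate 1 it was 22 of 24, the s-rRNA summit at 1592 and the tRNA-Asp summit being the exceptions. The CYTB peak was 50.2 times the strongest nuclear peak, near the start of rpl-3, a ribosomal protein gene, which had 435 in the optimal list, 197 in replicate 1 and 238 in replicate 2. The mitochondrial share of summed signal was 75.2% in the optimal list, 13.7% in replicate 1 and 23.6% in replicate 2. The relaxed lists hold many weak nuclear peaks, so these shares depend on the length of the list. Mitochondrial peaks were 5.83% of the optimal list (24 of 412, Wilson 95% interval 3.95% to 8.52%), for 0.0138% of the genome's length. They were 0.171% of the list of replicate 1, 0.156% of that of replicate 2 and 0.229% of the pooled list. The interval covers counting error only. It counts the 24 mitochondrial peaks as independent, although they lie in 6 regions of 1 molecule.

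Peak regions covered most of the circle. The optimal regions covered 11964 of 13794 bp (86.7%) in 6 regions of 227 to 3604 bp, whereas nuclear optimal regions had a median width of 420 bp and were at most 432 bp wide. Coverage was 88.5% in 5 regions in replicate 1 and 84.2% in 7 regions in replicate 2. Regions of the optimal list covered 26 of the 36 genes fully and 8 in part. Several summits share 1 region, so a gene can be covered without holding a summit.

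The stretches without an optimal peak region, taken on the circle, numbered 6. The longest, 886 bp from 12964 over the origin to 55, held the end of ND5, tRNA-Ala, the AT-region and tRNA-Pro. It was followed by 421 bp at 283 to 703 in ND6 and ND4L and by 312 bp at 6569 to 6880 in the upstream part of ND4. These 3 stretches recurred in every list. In replicate 1 they were 854, 375 and 238 bp long, and in replicate 2 they were 967, 455 and 346 bp long. Shorter ones lay in l-rRNA at 10485 to 10600 (116 bp), in ND2 at 4077 to 4124 (48 bp) and at the junction of ND1 and ATP6 at 2619 to 2665 (47 bp). Replicate 1 had no gap in ND2, and replicate 2 had one of 191 bp there and a further gap of 8 bp in CYTB. The AT-region (13329 to 13794, 466 bp, 93.1% A+T) was covered by no region of any list, and its nearest summit was 196 bp away in ND6 in the optimal list. RefSeq also annotates an intergenic region of 109 bp at 7736 to 7844, which by the Ensembl limits used here lies largely inside the end of ND4 and the start of COX1. It was fully covered in all lists and held no summit.

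Repeated sequence marked the longest stretch. Of the 31-base words of the mitochondrial genome, 1.52% had another copy in the genome, mostly within the mitochondrial genome itself. They made up 0.0418% of covered and 11.2% of uncovered words, and 44.0% of those in the AT-region. The other 5 optimal stretches contained none. Whether the authors' handling of reads with several matches touched the longest stretch was not tested.

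Summits lay in sequence with less A+T than the rest of the mitochondrial genome. In windows of 50 bp on each side, A+T averaged 69.2% ± 4.30 (SD, n = 24 windows) at optimal summits, against 76.2% ± 7.06 over all windows of that width. Of the 24 windows, 22 were below the median of all windows, and the same held for 21 of 24 in replicate 1 and 21 of 23 in replicate 2. Covered sequence had 74.8% A+T and uncovered sequence 85.3%, and uncovered sequence without the AT-region had 82.6%, an exclusion chosen after the values were seen. Among the summits, signal and A+T had a rho of -0.05 in the optimal list, -0.30 in replicate 1 and -0.15 in replicate 2, given as a description over windows of 1 genome. Nuclear optimal windows averaged 50.05% ± 8.27 A+T (n = 388), in a nuclear genome of 64.6%.

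**Figure D4:**
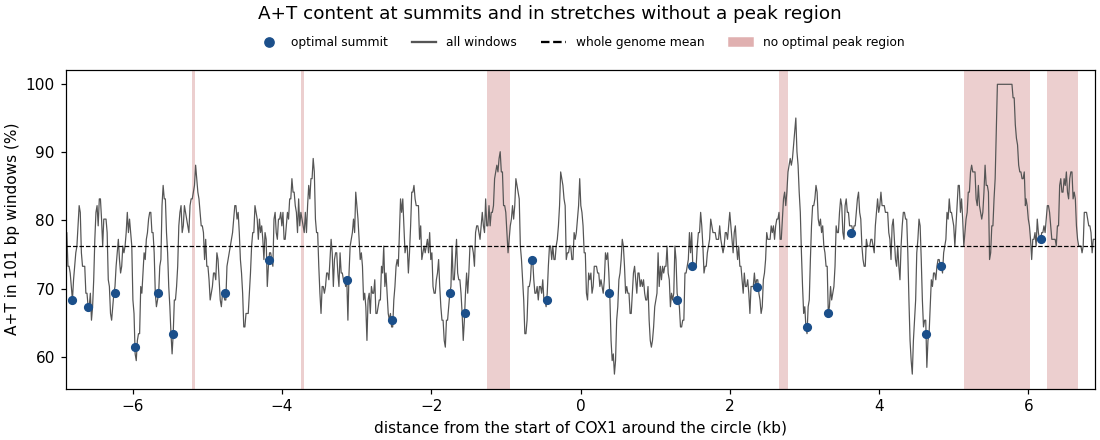
A+T content in windows of 50 bp on each side of a position (vertical axis, percent) along the mitochondrial circle, in kb from the start of COX1, with the 24 optimal summits as points and stretches without an optimal peak region shaded. Most points lie below the dashed genome mean of 76.2%, and the line rises to its maximum in the shaded AT-region.

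Some neighbouring summits stood about 200 bp apart, and then the downstream one was the weaker. The median spacing of neighbours was 581 bp in the optimal list. Of the 23 neighbouring pairs of the optimal list, 6 were within 220 bp, at 200 to 208 bp, in s-rRNA, ND1, COX3, ND4, COX1 and ND5. The downstream summit was weaker in 6 of 6, with a signal 0.0969 to 0.734 times the upstream one. In replicate 1 it was weaker in 7 of 7 pairs at 199 to 207 bp, and in replicate 2 in 4 of 4 at 200 to 217 bp. Among the other neighbours the downstream summit was weaker in 7 of 17 in the optimal list. Nuclear summits had the same lower limit, 199 bp, in every list. Among nuclear pairs within 220 bp the summit at the higher coordinate was the weaker in 9 of 9 in the optimal list, 93.9% of 623 in replicate 1 and 93.7% of 575 in replicate 2. The paired summits of the mitochondrial genes thus shared their spacing and order with nuclear pairs, and how many separate sites they stand for was not tested.

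**Figure D5:**
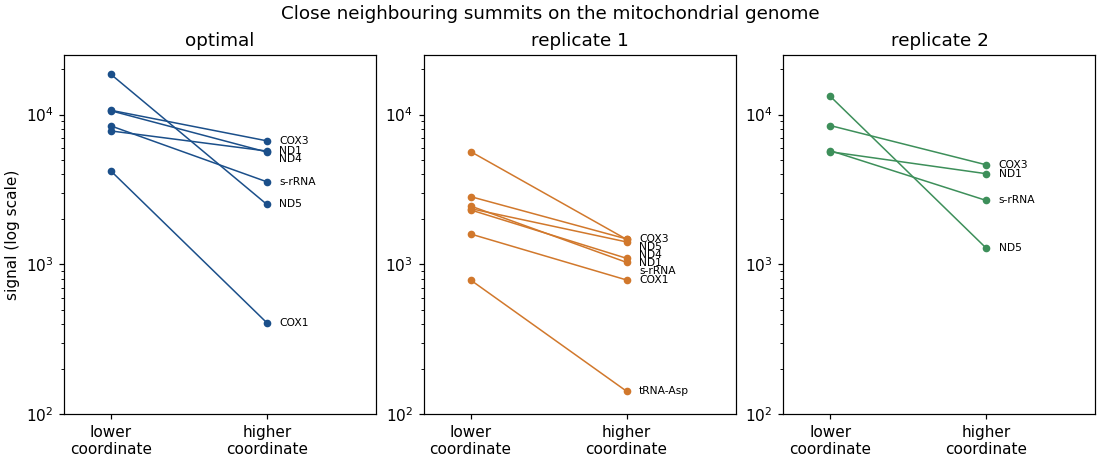
Signal (log scale) of mitochondrial summits within 220 bp of each other, at the lower coordinate (left) and the higher coordinate (right), joined by lines, for the optimal list and both replicates, with the gene of the summit at the higher coordinate named. All 6, 7 and 4 lines fall.

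No searched hexamer was more frequent in the 24 optimal windows than over all mitochondrial windows, and the counts were small. The 4 hexamers named here, taken over from earlier work on these data, were searched on both strands, with overlapping matches allowed, within 50 bp of each summit. GAGAGA was in 0 of 24 optimal windows, against 2.09% of all mitochondrial windows, and in 28.1% of the 388 nuclear optimal windows. TGATAC was in 0 of 24, against 4.18% of all mitochondrial windows and 3.09% of the nuclear optimal ones. TAATTA, which is its own complement and the core of many homeodomain sites, was in 3 of 24 (12.5%), against 17.2% of all mitochondrial windows and 1.55% of the nuclear optimal ones. Those windows were at ND1, COX1 and ND5, and the ND1 match is printed above. TGATAA was in 2 of 24 (8.33%), at ATP6 and ND4, against 11.03% of all mitochondrial windows and 2.58% of the nuclear optimal ones. In replicate 1 it was 3 of 24 for each of these last 2 hexamers (12.5%), and in replicate 2 TAATTA was in 2 of 23 and TGATAA in 1 of 23. Both replicates had 0 windows with GAGAGA and 0 with TGATAC. The strongest windows, in CYTB and ND5, held none of the 4 hexamers. The compared sets differ in base composition. A+T averaged 69.2% in the optimal mitochondrial windows, 76.2% over all mitochondrial windows and 50.05% in the nuclear optimal ones. The part of this difference in the hexamer shares was not tested.

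The nuclear genome encodes the other subunits of the respiratory chain and the proteins of the mitochondrial ribosome. Both sets were listed here by gene symbol, such as nuo-, cox- and atp- for the chain and mrpl- and mrps- for the ribosome. The lists can therefore hold genes that are not subunits and miss subunits with other symbols. Of 47 nuclear respiratory chain genes, 0 held an optimal summit, against 0.506% of nuclear protein-coding genes, and 3 had one from 1000 bp upstream to 500 bp downstream of a start (6.38%, against 1.41%). These were cox-5A, a complex IV subunit, with 207 in the optimal list, cox-6A, also of complex IV, with 121, and mev-1, a complex II subunit, with 87.4. The replicates had 115.4 and 90.2 at cox-5A, 48.3 and 68.1 at cox-6A and 39.7 and 45.1 at mev-1 in replicates 1 and 2. Of 70 mitochondrial ribosome genes, 0 held a summit and 1 had one in that window (1.43%), mrpl-28, with 105 in the optimal list, 60.3 in replicate 1 and 44.7 in replicate 2. All 4 signals were below the weakest mitochondrial peak of the optimal list, as were nearly all nuclear peaks. That mitochondrial peak ranked 26 among the 412 peaks of the list, and 23 of those above it were mitochondrial.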

How the data were processed

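Peaks were read from lists for 2 biological replicates on build ce11. The deposited peak signal, which the authors computed, was taken without change, and the deposited −log10 of the q-value did not filter any peak. The optimal list was thresholded by irreproducible discovery rate, per the names of the deposited lists. Names of the aligner and peak caller, thresholds and control treatment were not given in the sources used here. A summit was the deposited start plus the summit offset plus 1. Gene limits came from Ensembl release 115, and names and sequence from RefSeq. A summit was put in a gene when it lay within the limits, and otherwise the nearest summit was taken around the circle. Sequence was that of the reference, not of the strain.

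No test was made: there was 1 group, and mitochondrial genes are neighbours on 1 molecule. Peaks do not give the depth of a library. Replicate summits were matched as mutually nearest within 100 bp. Intervals on shares of peaks are Wilson intervals at the 95% level and cover counting error only. The ce10 lists were used for counts. Members, gene lists, hexamers and alternatives were chosen with earlier results of these data known. By rule, all members are named, with the gene nearest the strongest nuclear peak and the strongest 4 nuclear relatives with a peak. The interval code was tested on simulated data. Python 3.11.15, numpy 2.4.6, SciPy 1.17.1 and matplotlib 3.10.9 were used.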

Additional observations from a re-analysis of the deposited data

How the results depend on the processing

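With gene limits from RefSeq, an alternative chosen after seeing the data, the gene counts were unchanged. Of 71 alternatives over 14 results, 52 kept counts within 1.5 times and other values within their spread, and 19 did not. Counting any overlap of region and gene raised the genes hit to 34 and the tRNA genes to 20, from 13 and 0 by summit. A margin of 50 bp gave 1 tRNA gene, and the replicate lists gave 0 to 1. The 12 strongest of the 24 peaks left 1 rRNA gene with a summit. Windows of 100 bp on each side of the summits covered 35.0% of the genome and left 24 stretches, the longest 1033 bp. On linear coordinates there were 7 stretches, the longest 831 bp (828 to 869 bp with 1 replicate each), and on the circle it was 886 bp. The mitochondrial share of peaks was 0.156% to 0.171% in the replicate lists and 0.229% in the pooled list, and the share of signal was 13.7% to 23.6% and 26.3%. Between replicates rho was 0.816 within 50 bp (n = 18), and Pearson's r of log2 signal was 0.73. With 100 bp on each side 1 optimal window held GAGAGA. No paired analysis was possible because there is 1 group and no test. Depth is unknown and limits every signal.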

Other observations

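The mitochondrial genome holds 3 GAGAGA sites, in ATP6, COX3 and COX1, all inside optimal peak regions and 73 to 322 bp from the nearest optimal summit. It holds 26 TAATTA sites, of which 25 lie in optimal peak regions, at a median of 142 bp from a summit. For TGATAC it was 6 of 6 sites, and for TGATAA 17 of 18. Optimal peak regions cover 86.7% of this genome, so these counts say little about the hexamers. On build ce10 the replicate 2 list held 24 mitochondrial peaks with 24.4% of the summed signal, and on ce11 it held 23 with 23.6%, while the other lists held 24 on both builds.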
